A study of Mus musculus with 3 samples.

Results

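The genes described here are the D-type cyclins Ccnd1, Ccnd2 and Ccnd3, their kinase partners Cdk4 and Cdk6, and the pocket proteins Rb1, Rbl1 and Rbl2. They were chosen by symbol, as 8 of the 17775 genes with a row in any of 3 single-cell count tables, and all 8 had a row in each table. D cyclins bind CDK4 or CDK6, and the active kinase phosphorylates the pocket proteins, which otherwise hold E2F factors inactive and keep a cell out of S phase. p27, the product of Cdkn1b, binds and inhibits cyclin-CDK complexes, and D cyclin complexes in turn bind and hold p27. Loss of either p27 or Rb1 in mice is known for tumours of the intermediate lobe (IL) of the pituitary, whose single endocrine cell type, the melanotroph, makes melanocyte stimulating hormone from the Pomc precursor.

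Cells were dissociated from ILs of 3-month-old mice given tamoxifen by gavage at 4 weeks, according to the labels, and profiled on the 10x Genomics Chromium platform, which counts unique molecular identifiers (UMIs) near the 3′ ends of transcripts. All mice carried Sox9iresCreERT2/+, which drives a tamoxifen-dependent Cre in Sox9-expressing stem cells (SCs). By the labels WT carried no other allele, P27NULL was p27-/-, and S2CK was p27-/- with Sox2fl/+, so that its Cre can delete 1 copy of Sox2 in SCs, whose later progeny would carry the deletion. The study's methods also list Rosa26ReYFP/+, a reporter that Cre switches on, in every group. The study's account of these single-cell samples differs from the labels on when Cre was induced, placing it at birth. Which of these holds for the Sox2 deletion in S2CK could not be settled here. The mice were kept on a mixed genetic background. Animals were pooled for each genotype, listed by the study as males for WT and as male and female for P27NULL and S2CK. Each genotype is thus 1 library with no replicate. No test between genotypes was possible. Values are given with exact 95% intervals that cover counting error only and say nothing of the spread between animals.

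The WT library held 2020 cells, P27NULL 4153 and S2CK 3488, with totals of 8332285, 15588317 and 19239147 UMIs and medians of 3642.5, 2740 and 4906.5 UMIs per cell. Pairs of libraries shared 2 to 4 cell barcodes. Cells were clustered without the 8 genes, and the classes called melanotroph-like and SC-like were named from markers, with 1279, 3531 and 2874 melanotroph-like cells in WT, P27NULL and S2CK. Pcsk2, the prohormone convertase that cuts Pomc into its melanotroph products, had a UMI in 98.1%, 99.5% and 99.3% of these cells, and Pax7, the factor that specifies melanotrophs, in 50.6%, 48.7% and 56.0%.

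The libraries differed in sex, and the P27NULL library held a mixture that bears on every value below. Xist, the RNA that the inactive X of females transcribes, was not among the WT table's rows and had a UMI in 3274 of 3488 S2CK cells. S2CK had 0 cells with a Y-linked UMI, although the study lists that library, like P27NULL, as a pool of both sexes. In P27NULL, 766 cells with Xist and no Y-linked UMI were called female, and the 3370 cells with no Xist UMI were called male. Of the latter, 754 also had a Y-linked UMI, and the others can include female cells in which Xist was missed. Cdkn1b stood at 33.8 CPM (UMIs of the gene per 1000000 UMIs of the cells) in WT melanotroph-like cells (29.4 to 38.8), at 36.7 in female (30.1 to 44.4) and 29.5 in male P27NULL cells (26.4 to 33.0), and at 17 in S2CK (15.1 to 19.2). Which part of the gene is deleted is not given in the sources used here, and 3′ tags from outside it do not check the genotype. Lockd, a noncoding RNA transcribed beside Cdkn1b, stood at 13.3 CPM in WT, 17 in female P27NULL cells, 39.5 in male P27NULL cells and 26.8 in S2CK, so that the female P27NULL cells were near WT and the male ones were not. In SC-like cells Sox2 was at 271 CPM in WT (230 to 318), 308 in P27NULL (255 to 370) and 131 in S2CK (104 to 161). The comparison of S2CK with WT has no value within a sex.

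Ccnd2, the D cyclin of many endocrine cell types, differed with the library and with the sex. Its level in melanotroph-like cells was 441 CPM in WT (425 to 458), 112 in P27NULL (106 to 118) and 15.9 in S2CK (14.0 to 17.9). The level was thus 3.95-fold lower in P27NULL than in WT and 27.8-fold lower in S2CK than in WT, and no interval overlapped another. Within P27NULL, the 634 female melanotroph-like cells were at 381 CPM (358 to 404), the 2886 male cells at 39.1 (35.5 to 43.1), and the 661 male cells with a Y-linked UMI at 26.4 (21.6 to 32.1). Female P27NULL cells were therefore close to the male WT library, though below it, whereas the male cells of the same library were 11.3-fold below WT.

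Ccnd1 followed the same order. It was counted at 56.5 CPM in WT melanotroph-like cells (50.7 to 62.8), 6.30 in P27NULL (5.04 to 7.78) and 1.65 in S2CK (1.09 to 2.41). Female P27NULL cells had 20.4 CPM (15.6 to 26.4) and male cells 2.54 (1.67 to 3.70), on 59 and 27 UMIs. In the female cells Ccnd1 was 2.76-fold lower than in WT, a larger difference than that of Ccnd2 in the same cells.

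Ccnd3, the third D cyclin, was close in WT and P27NULL and lower in S2CK. Its levels were 61.9 CPM in WT (55.8 to 68.5), 59.3 in P27NULL (55.3 to 63.5) and 39.9 in S2CK (36.9 to 43.1). It did not separate the sexes of P27NULL, with 56.8 CPM in female cells (48.5 to 66.2) and 60.2 in male cells (55.6 to 65.1). Summed over the 3 D cyclins, melanotroph-like cells held 560 CPM in WT, 458 in female P27NULL cells, 102 in male P27NULL cells and 57.4 in S2CK.

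The kinases and pocket proteins moved little beside them. Cdk4, the main partner of the D cyclins in most cells, was at 127 CPM in WT (119 to 137), 133 in P27NULL (127 to 139) and 116 in S2CK (110 to 121). Cdk6, its close relative, was at 8.21, 10.2 and 10.0 CPM, with overlapping intervals. The sum over Cdk4 and Cdk6 was 136, 143 and 126 CPM. Rb1, the retinoblastoma gene, was at 15.1 CPM in WT (12.2 to 18.5), 17.7 in P27NULL (15.6 to 20.1) and 11.1 in S2CK (9.59 to 12.9). Its relatives Rbl1 (p107) and Rbl2 (p130), the latter known for its role in quiescent cells, were at 3.29, 3.37 and 4.53 CPM and at 14.1, 13.4 and 11.2 CPM. The interval of Rb1 in S2CK lay below that in P27NULL, while the intervals of Rbl1 and of Rbl2 overlapped across the 3 libraries.

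**Figure D1:**
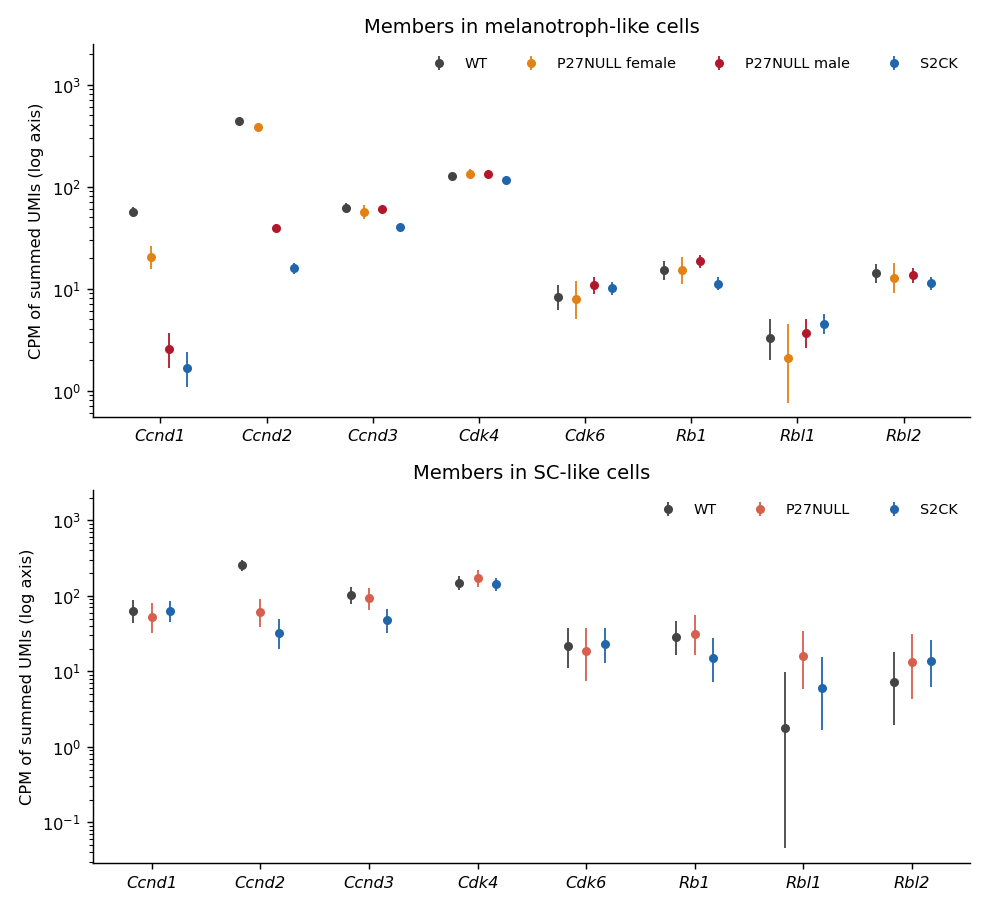
Level of each gene in melanotroph-like cells (upper panel) and SC-like cells (lower panel), as CPM of UMIs summed over the cells of a group on a log axis. Points are the values and bars the exact 95% Poisson intervals (counting error only). In the upper panel P27NULL is split by sex; Ccnd2 sits at 441 CPM in WT and 381 in female P27NULL cells, against 39.1 in male P27NULL cells and 15.9 in S2CK, while Cdk4 sits between 116 and 133 in all 4 groups.

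The shares of cells with a UMI gave the same order once depth was equal. With every cell thinned to 1000 UMIs, Ccnd2 was detected in 33.8% of WT melanotroph-like cells (31.1 to 36.5%), in 29.7% of female (26.1 to 33.4%) and 3.4% of male P27NULL cells (2.77 to 4.12%), and in 1.64% of S2CK cells (1.20 to 2.17%). Unthinned, the shares were 78.1%, 67.5%, 8.66% and 6.92%. For Ccnd1 the unthinned shares were 21.7%, 7.57%, 0.936% and 0.905%. No cell type in these libraries is known to lack Ccnd2. The macrophage or microglia-like cells of S2CK, which were shallower (median 2577 against 5015.5 UMIs), had a Ccnd2 UMI in 8.55% of cells. In S2CK gonadotroph-like cells 1 of 38 had a Ccnd1 UMI (2.63%, 0.07 to 13.8%) and 0 had a Ccnd2 UMI (0 to 9.25%). The S2CK melanotroph shares lay inside both gonadotroph-like intervals and, for Ccnd2, below the macrophage or microglia-like share. The cells they are set beside may express the genes themselves, so they cannot tell low expression from background. Whether the S2CK melanotroph shares are expression was not tested.

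Read against all genes, these differences were far from the centre. A gene was counted as past the fold when its CPM differed 2-fold or more and it had at least 50 UMIs in the pair of groups. In P27NULL against WT, 2 of the 8 genes were past the fold downwards, Ccnd1 at a log2 ratio of -3.17 (-3.52 to -2.82) and Ccnd2 at -1.98 (-2.07 to -1.89), where 0.685% of 11528 genes were. They ranked 8 and 13 from the lowest of those genes. None was past it upwards, where 2.04% of genes were. The rule that chose these genes used the same libraries, so these shares describe the genes and are no test of them.

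S2CK against P27NULL again had Ccnd1 and Ccnd2 past the fold, at -1.93 (-2.61 to -1.29) and -2.82 (-3.01 to -2.63), where 3.16% of genes were lower, and none of the 8 higher, where 1.07% were. S2CK against WT gave -5.09 for Ccnd1 (-5.72 to -4.53) and -4.80 for Ccnd2 (-4.99 to -4.61), ranks 4 and 5 from the lowest of 11607 genes, where 1.94% of genes were past the fold downwards and 1.95% upwards (0 of the 8). The other 6 genes stayed within 2-fold in these 3 comparisons, and the nearest were Rb1 at -0.67 (-0.95 to -0.38) in S2CK against P27NULL and Ccnd3 at -0.64 (-0.82 to -0.45) in S2CK against WT. The 3 comparisons share libraries and are not independent of each other. The median log2 ratio over the 8 genes was -0.01 in P27NULL against WT, -0.42 in S2CK against P27NULL and -0.39 in S2CK against WT, beside 0.09, -0.15 and -0.03 over all genes compared.

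Splitting P27NULL by sex moved the Ccnd2 ratio more than the other choices tried. Male P27NULL cells against WT, a comparison between male cells, gave -4.48 for Ccnd1 (-5.10 to -3.91) and -3.49 for Ccnd2 (-3.65 to -3.35), and these were the 2 of 8 past the fold where 0.897% of genes were. Female P27NULL cells against the male WT library gave -1.47 for Ccnd1 (-1.89 to -1.06) and -0.21 for Ccnd2 (-0.32 to -0.11), so that only Ccnd1, of 7 genes with enough UMIs, was past the fold, where 0.884% of genes were. S2CK against female P27NULL cells, a comparison between mostly female cells, gave -3.63 for Ccnd1 (-4.34 to -2.95) and -4.58 for Ccnd2 (-4.79 to -4.39), the 2 of 8 that were lower by the fold where 2.53% of genes were. In that comparison Rbl1 came to 1.12 (-0.07 to 2.62), on only 6 UMIs in the female cells, the 1 of 8 higher by the fold where 2.61% of genes were.

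Against male P27NULL cells, in contrast, S2CK was lower by less, at -1.30 for Ccnd2 (-1.53 to -1.08) and -0.62 for Ccnd1 (-1.44 to 0.21). Ccnd2 was then the 1 of 8 genes lower by the fold, where 3.47% of 11970 genes were. Female against male P27NULL cells within the library gave 3.01 for Ccnd1 (2.33 to 3.72) and 3.28 for Ccnd2 (3.12 to 3.45), ranks 6 and 4 from the highest of 10844 genes. These were 2 of the 7 genes with enough UMIs, where 0.553% of genes were higher by the fold. Ccnd3, Cdk4, Cdk6, Rb1 and Rbl2 lay between -0.44 and 0.00 in that comparison. In a pool, sex and animal cannot be told apart.

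**Figure D2:**
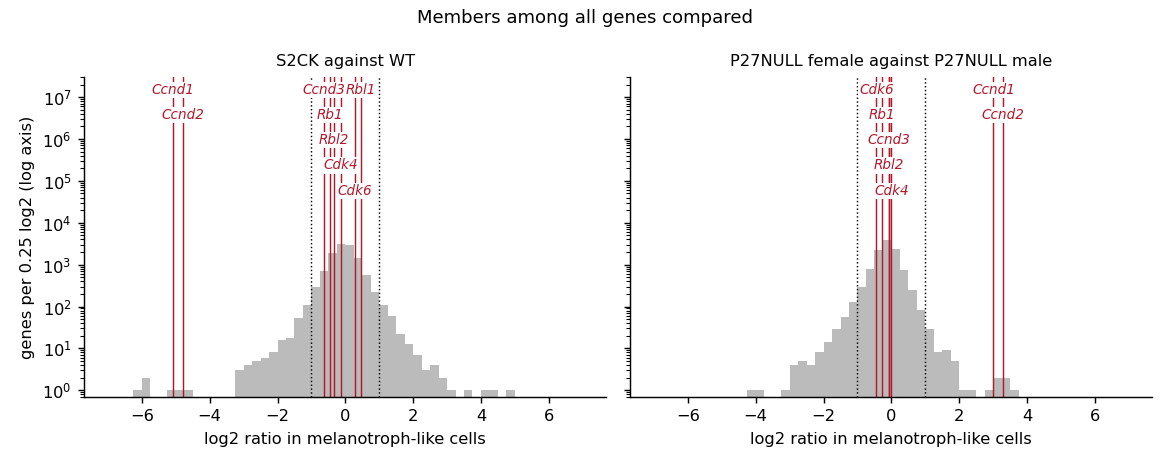
Distribution of log2 ratios over all genes with at least 50 UMIs in melanotroph-like cells (grey bars, genes per bin of 0.25 on a log axis), for S2CK against WT (left) and female against male P27NULL cells (right). Red lines mark the 8 genes, or the 7 with enough UMIs on the right, and dotted lines mark 2-fold; Ccnd1 and Ccnd2 stand at -5.09 and -4.80 on the left and at 3.01 and 3.28 on the right, apart from the other genes of the set, which lie inside the dotted lines.

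The spread of Ccnd2 over cells was described by counts per cell at equal depth, in melanotrophs defined by Pomc at 5% or more of UMIs and 2 or more Pcsk2 UMIs, thinned to 2000 UMIs. Of 1190 WT cells, 56.7% had a Ccnd2 UMI (53.9 to 59.6%), and the variance of the count was 1.05 times its mean. Cells with no UMI made up 43.3%, where a Poisson draw with the same mean gives 41.8%. The WT counts were thus close to such a draw. Female P27NULL cells were alike, with a UMI in 49.3% of 566 cells (45.1 to 53.5%) and a variance of 1.08 times the mean.

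The pooled P27NULL cells were spread more widely, with a variance of 1.51 times the mean, and so were the male P27NULL cells alone, at 1.54 with a UMI in 5.97% of 2011 cells (4.97 to 7.09%). Among male cells with a Y-linked UMI the ratio was 1.21 and 3.93% of 535 cells had a UMI (2.45 to 5.94%). In S2CK 2.73% of 2930 cells had a UMI (2.17 to 3.39%), and 9 cells had 2. Ccnd1 was found in 11.1% of WT cells with a Ccnd2 UMI and in 8.93% of those without, in 7.53% and 1.39% of such female P27NULL cells, and in 0 of the 80 S2CK cells with a Ccnd2 UMI, where a floor of 3 cells would be 3.75%.

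**Figure D3:**
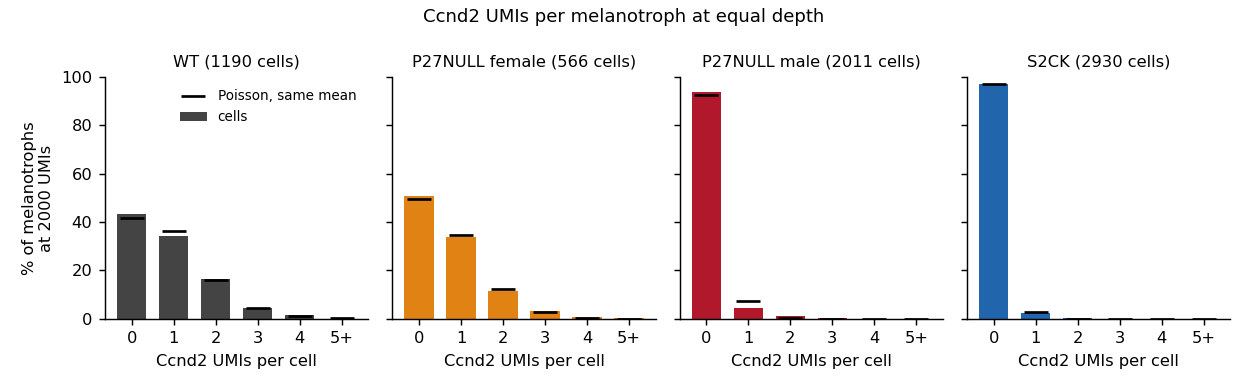
Share of melanotrophs (%) by their number of Ccnd2 UMIs when each cell is thinned to 2000 UMIs, for WT, female and male P27NULL cells and S2CK; black dashes give a Poisson distribution with the same mean. WT and female P27NULL cells have 43.3% and 50.7% of cells at 0 and follow the dashes, whereas 94% of male P27NULL and 97.3% of S2CK cells are at 0.

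Between the melanotroph-like clusters of a library the Ccnd2 level was close in WT and spread more widely in the others. In WT Ccnd2 ranged from 423 to 481 CPM over 5 clusters, the highest being 35 cells led by the interferon-induced genes Isg15, Ifit3 and Ifit1, whose interval (378 to 604) took in the other clusters. In P27NULL the range was 41.8 to 128 CPM over 8 clusters, and the cluster at 41.8 CPM, led by Cenpf and histone genes, had 7.04% of its cells with Xist. The next lowest, 423 cells led by Klk1, was at 49.9 CPM (38.9 to 63.1) with 10.9% of cells with Xist, below the highest at 128 CPM (115 to 141) with 27.7%. In S2CK the range was 6.33 to 24.3 CPM, but its low end was 1 UMI in a cluster of 30 cells (0.16 to 35.3). The highest (18.3 to 31.8) was again the cluster led by interferon-induced genes, above a cluster of 433 cells led by Ecel1 at 10.3 CPM (6.65 to 15.2). All S2CK clusters had values below that of the lowest P27NULL cluster, whose interval (18.0 to 82.4) was wide.

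SC-like cells had fewer UMIs, and shared the difference from WT in Ccnd2 but not that in Ccnd1. Ccnd2 stood at 255 CPM in WT (215 to 300), 60.6 in P27NULL (38.4 to 91.0) and 31.9 in S2CK (19.7 to 48.8). The P27NULL and S2CK intervals overlapped, and their 23 and 21 UMIs were too few for a ratio between them to be counted. Ccnd1 stood at 62.4 CPM in WT (43.4 to 86.7), 52.7 in P27NULL (32.2 to 81.4) and 62.3 in S2CK (44.7 to 84.5), so that its intervals overlapped in full. Ccnd3 was at 102 CPM in WT (76.9 to 132), 92.3 in P27NULL (64.3 to 128) and 47.1 in S2CK (32.0 to 66.8). Cdk4 was at 148, 171 and 141 CPM, and Cdk6 at 21.4, 18.5 and 22.8 CPM.

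In P27NULL against WT, Ccnd2 was the 1 gene past the fold of 4 with enough UMIs, at a log2 ratio of -2.07 (-2.77 to -1.43), where 0.899% of 2782 genes were lower by the fold. In S2CK against WT, Ccnd2 at -3.0 (-3.73 to -2.33) and Ccnd3 at -1.11 (-1.79 to -0.45) were 2 of 4, where 3.37% of 3472 genes were. Rb1, at 28.5, 31.6 and 15.2 CPM, and Rbl1 and Rbl2 had too few UMIs in SC-like cells to be counted. Only 18 SC-like cells of P27NULL were called female, so these ratios rest mainly on male P27NULL cells and on female S2CK cells.

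Across the cell types of WT, the 4 highest Ccnd2 values were those of hormone-producing cells. Its level was 444 CPM in corticotroph-like cells (386 to 508), 441 in melanotroph-like, 383 in gonadotroph-like (320 to 455) and 356 in Pou1f1 lineage-like cells (289 to 434), neighbours whose intervals overlapped. It was 302 CPM in T or NK-like cells (169 to 498), 236 in pituicyte-like (142 to 368), 151 in endothelial-like (89.7 to 239), 136 in connective tissue-like (77.9 to 221) and 77.5 in macrophage or microglia-like cells (44.3 to 126). Each of these also overlapped its neighbour in the order, while the lowest 3 lay below the 4 endocrine types.

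The difference between libraries in Ccnd2 was not the same in every type. Corticotroph-like cells held 362 CPM in P27NULL (291 to 444) and 100 in S2CK (66.5 to 145), so that the pooled P27NULL value was near WT there. Within them, the 32 female cells of P27NULL were at 595 CPM (443 to 783) and the 71 male cells at 249 (177 to 340), a smaller gap between the sexes (log2 ratio 1.26, 0.63 to 1.90) than in melanotroph-like cells (3.28, 3.12 to 3.45). Against the male WT library, the male P27NULL corticotroph-like cells were lower, at a log2 ratio of -0.83 (-1.37 to -0.34). The female ones were at 0.42 (-0.05 to 0.87). Pou1f1 lineage-like cells were at 327 CPM in P27NULL (212 to 483) and 34.0 in S2CK (14.7 to 67.0), and 13 of the 28 P27NULL cells were female. Gonadotroph-like cells were at 112 CPM in P27NULL (84.5 to 147), where 116 of 129 cells were called male. These male cells against WT gave a log2 ratio of -2.16 (-2.74 to -1.62). No Ccnd2 UMI was counted in 38 S2CK gonadotroph-like cells. A floor of 3 UMIs (13.8 CPM) would put the S2CK cells 27.8-fold below WT. The interval of the log2 ratio of S2CK against WT ended at -4.48, which allows a smaller difference than that.

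Outside the endocrine lineages the counts were small. Endothelial-like cells had 18, 2 and 1 Ccnd2 UMIs in WT, P27NULL and S2CK, and connective tissue-like cells 16, 5 and 2. T or NK-like cells had 15 in WT and 10 in S2CK, a log2 ratio of -1.04 (-2.36 to 0.21). Macrophage or microglia-like cells had 34.2 CPM in P27NULL and 29.0 in S2CK, with intervals that overlapped WT. Melanotroph RNA was present among these cells: Pcsk2 stood at 237, 1932 and 570 CPM in the macrophage or microglia-like cells of WT, P27NULL and S2CK. At the ratio of Ccnd2 to Pcsk2 seen in the melanotroph-like cells of the same library, that much Pcsk2 would come with 24.5, 37.9 and 3.71 CPM of Ccnd2, so that the P27NULL value of 34.2 is not read as expression by these cells. For SC-like cells the same reckoning gave 62.9, 9.52 and 2.43 CPM, below the 255, 60.6 and 31.9 CPM counted. In WT connective tissue-like cells it gave 89.7 of the 136 CPM, and the part of such RNA in these values was not tested.

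Ccnd1 had another order among types. In WT it was 126 CPM in endothelial-like cells (70.6 to 208) and 99.3 in pituicyte-like cells (42.8 to 196), between 48.4 and 65.4 in SC-like, Pou1f1 lineage-like, connective tissue-like, melanotroph-like, corticotroph-like and macrophage or microglia-like cells, and 5.85 in gonadotroph-like cells (0.71 to 21.1), whose interval lay below that of melanotroph-like cells and which was not above the 6.34 CPM that its Pcsk2 would bring at the melanotroph ratio. No Ccnd1 UMI was counted in WT T or NK-like cells. In endothelial-like cells it was 77.1 CPM in P27NULL (21.0 to 198) and 76.4 in S2CK (34.9 to 145), and in macrophage or microglia-like cells 28.0 and 39.6, so that in neither type did the libraries separate. In Pou1f1 lineage-like cells it was 65.4 CPM in WT and 65.5 in P27NULL, with 0 UMIs in 34 S2CK cells (a floor of 12.7 CPM).

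**Figure D4:**
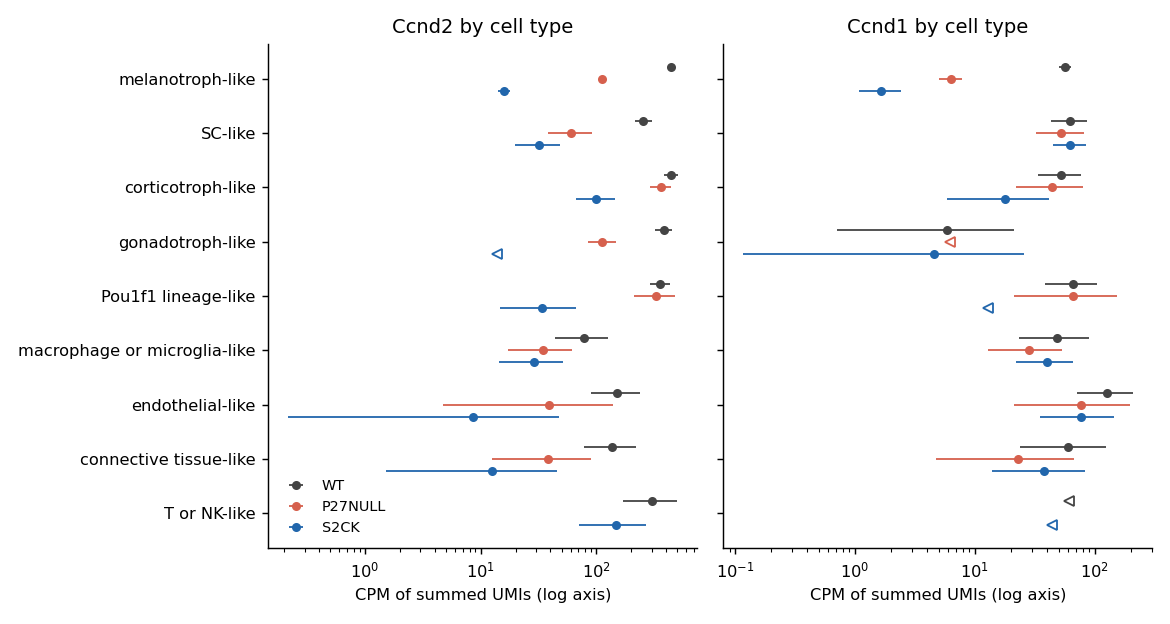
Ccnd2 (left) and Ccnd1 (right) in 9 marker-named cell types and 3 libraries, as CPM of summed UMIs on a log axis with exact 95% Poisson intervals; open triangles stand at the level of 3 UMIs where none was counted, and types with under 20 cells in a library are not drawn. The libraries separate for Ccnd2 in melanotroph-like cells (441, 112 and 15.9 CPM), whereas for Ccnd1 they separate in melanotroph-like cells (56.5, 6.30 and 1.65 CPM) and overlap in SC-like cells.

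The other members also differed between types. Ccnd3, which lymphocytes are known to use, was highest in T or NK-like cells, at 222 CPM in WT (111 to 397) and 147 in S2CK (70.3 to 270). Rb1 reached 118 CPM in WT endothelial-like cells (64.3 to 197), above its 15.1 CPM in WT melanotroph-like cells. Rbl2 was at 121 CPM in WT T or NK-like cells (44.4 to 263), on 6 UMIs. Cdk6, at 38.7 CPM in WT macrophage or microglia-like cells (16.7 to 76.3), had no UMI in WT gonadotroph-like, Pou1f1 lineage-like, endothelial-like, pituicyte-like or T or NK-like cells. The interval ended at 10.8 CPM in gonadotroph-like cells. It reached 31.0 in endothelial-like, 45.8 in pituicyte-like and 74.3 in T or NK-like cells, which overlapped macrophage or microglia-like cells, so that Cdk6 is not read as absent there. Cdk4 ranged from 67.8 CPM in WT macrophage or microglia-like cells (37.1 to 114) to 161 in pituicyte-like cells (85.9 to 276), neighbours in that order overlapping throughout.

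Genes beside Ccnd2 and Ccnd1 were read to see whether a chromosome region moved with them. Ccnd2 lies at chr6:127125162-127152188 and Ccnd1 at chr7:144929931-144939831 (RefSeq, GRCm38.p6). The long noncoding RNA 9330179D12Rik, which overlaps the Ccnd2 gene by 2800 bases, had 5.58 CPM in WT melanotroph-like cells, 5.20 in female and 0.94 in male P27NULL cells, and 0.80 in S2CK, on 34, 15, 10 and 13 UMIs. It followed the order of Ccnd2, with a log2 ratio of S2CK against WT of -2.81 (-3.86 to -1.85), and reads in the shared bases could be counted for either gene.

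The other neighbours of Ccnd2, on each side, did not follow it. Tigar had 5.75 CPM in WT, 7.03 in P27NULL and 4.78 in S2CK. D6Wsu163e, Rad51ap1, Parp11 and Prmt8 had S2CK to WT log2 ratios of 0.03, 0.65, -0.38 and -0.12. Of these neighbours only Parp11 had an interval clear of 0 (-0.67 to -0.09), at a far smaller difference than Ccnd2. Near Ccnd1, Oraov1, which overlaps it by 818 bases, had 11, 9.66 and 9.13 CPM, and Fadd and Tpcn2 had log2 ratios of 0.03 and -0.27. Tpcn2, on 81 UMIs, was the only neighbour at higher coordinates than Ccnd1. Bc1, a noncoding RNA 15308 bases away, was lower in S2CK than in WT by -2.02 (-2.48 to -1.56), but its levels of 28.8 and 27.7 CPM in female and male P27NULL cells did not separate the sexes as Ccnd1 did.

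**Figure D5:**
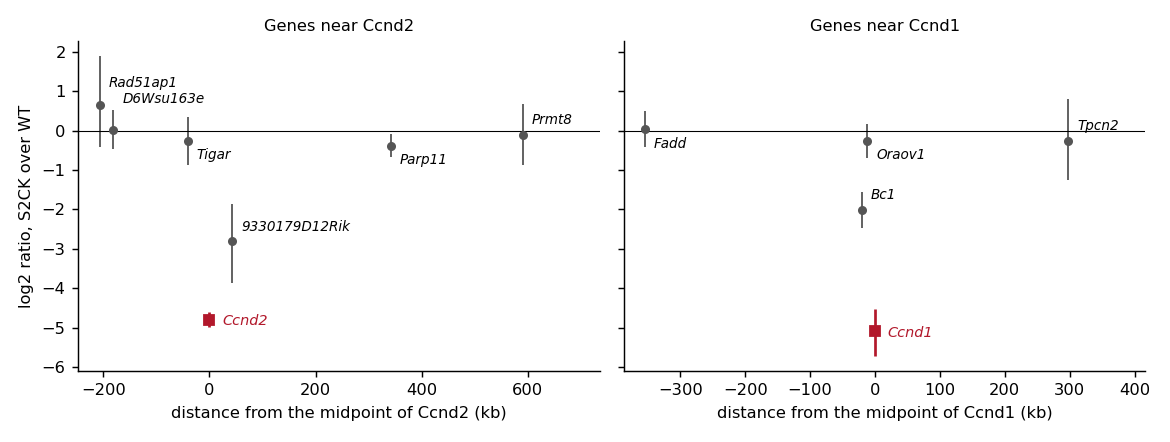
Log2 ratio of S2CK over WT in melanotroph-like cells for the nearest counted genes on each side of Ccnd2 (left) and Ccnd1 (right), against the distance between gene midpoints in kilobases; grey points are neighbours, red squares the cyclins, and bars exact 95% intervals. Ccnd2 (-4.80) and the overlapping 9330179D12Rik (-2.81) lie low, while Tigar and Prmt8 lie near 0 and Parp11 is at -0.38. Near Ccnd1 (-5.09) Bc1 is at -2.02.

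Across the 26 sums of a library and cell type with at least 50000 UMIs, the genes whose log2 level was most like that of Ccnd2 were Polr2l (Pearson r = 0.75), Rpl41 (0.75), Upf2 (0.70), Gm34590 (0.67) and Aamp (0.66), of 12169 genes. Polr2l, a subunit of RNA polymerases, had 274 CPM in the melanotroph-like cells of WT, 265 in those of P27NULL and 99.1 in those of S2CK, and at 269 and 264 CPM in female and male P27NULL cells, so that it did not separate the sexes. Those most like Ccnd1 were Sirt2 (0.77), Tsc22d3 (0.75), Tapbp (0.75), Lrrc8a (0.74) and Aplp2 (0.74). Ccnd1 and Ccnd2 were less alike than these, with an r of 0.25. The sums share 3 libraries, their depth and their cell types, and the r values describe them only.

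Cells of WT with and without a Ccnd2 UMI differed little in other genes. Of the 1190 WT melanotrophs thinned to 2000 UMIs, 675 had a Ccnd2 UMI and 515 had none, with median depths of 4301 and 4481 UMIs before thinning. Of 2818 genes with at least 100 UMIs, 66 (2.34%) were higher in the cells with Ccnd2 by 0.5 or more on the log2 scale and 25 (0.887%) were lower. None of the 3 members with enough UMIs was past that size. Ccnd1 was at 62.2 CPM in cells with Ccnd2 and 45.6 without (log2 ratio 0.45, -0.08 to 1.0), Ccnd3 at 57.8 and 68.0 (-0.23, -0.72 to 0.25), and Cdk4 at 127 and 123 (0.04, -0.30 to 0.38). Cdkn1b had 52 UMIs in the cells with Ccnd2 and 24 in those without (0.72, 0.00 to 1.49), under the minimum.

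The 8 genes farthest above 0 by the bound of their interval were Cga, Babam1, Gria2, Clint1, Exosc4, Nub1, Dync2li1 and Dnajb1. Cga, the alpha subunit of the gonadotropins and thyrotropin, led with 285 UMIs in cells with Ccnd2 and 24 in cells without (log2 ratio 3.18, 2.58 to 3.85). Of its 309 UMIs, 85.1% lay in 10 cells and 249 in 31 cells that clustered outside the melanotrophs, and among cells named melanotroph-like by cluster the ratio was 0.24. The other 7 lay between 0.60 (Gria2, a glutamate receptor subunit) and 0.90 (Babam1). The 8 farthest below 0 were Ifi27l2a (-0.73, -1.04 to -0.42), an interferon-induced gene, Apoe (-0.75, -1.14 to -0.36), the lipid carrier, and Ttn, Psmc1, Kif5c, Apex1, Nkiras1 and Nop58, between -0.73 and -0.56.

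These lists depended on the draw of the thinning. With another seed, 1 of the 8 higher and 1 of the 8 lower genes were named again, and at 1000 or 4000 UMIs per cell none was, with Cga then at -1.66 and -4.36. In the pooled P27NULL melanotrophs the same split named Xist first (log2 ratio 2.24, 2.03 to 2.45), followed by the immediate early genes Jun, Fosb, Dusp1 and Fos among others, in its female cells alone none of these 5 was among the 8 named, and in its male cells alone Jun (1.4, 0.80 to 1.96) and Fos (0.75, 0.57 to 0.92) were. Of the 404 pooled P27NULL cells with a Ccnd2 UMI, 279 were called female, as were 287 of the 2187 without.

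The other cell cycle genes were read from lists of 70 genes around this pathway, beside the shares of all genes past the fold in melanotroph-like cells: 2.04% higher and 0.685% lower in P27NULL against WT, 1.95% and 1.94% in S2CK against WT, and 1.07% and 3.16% in S2CK against P27NULL. Of the 3 Cip/Kip inhibitors, Cdkn1a (p21) was past 2-fold in melanotroph-like cells, at 1.97 CPM in WT and 6.59 in P27NULL (log2 ratio 1.74, 0.87 to 2.75) and at 4.65 in S2CK, and Cdkn1c (p57) was past it in S2CK against WT (1.79, 1.10 to 2.55). Of the INK4 inhibitors, which bind CDK4 and CDK6 directly, 2 of 4 had enough UMIs for these comparisons with WT, and Cdkn2c (p18) was at 30.4 CPM in WT and 86.0 in S2CK (1.5, 1.28 to 1.73). In SC-like cells Cdkn2c was at 42.8 CPM in WT, 119 in P27NULL and 156 in S2CK, and Cdkn1c, Ccni and Cks1b were also higher there in S2CK than in WT, by 1.33, 1.72 and 1.13. In SC-like cells 1.65% of genes were higher by the fold in P27NULL against WT and 2.94% in S2CK against WT. Both Cdkn1c and Cdkn2c were also higher in S2CK than in female P27NULL cells, by 1.5 (0.63 to 2.53) and 1.15 (0.87 to 1.44), where 2.61% of genes were.

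Of the E2F and DP factors, 1 of 8 with enough UMIs was past the fold in P27NULL against WT, E2f1, at 2.30 CPM in WT and 5.20 in P27NULL (1.18, 0.34 to 2.12), with 2.08 in female and 6.12 in male cells. Lin9, of the MuvB core, was likewise lower in female than in male P27NULL cells, at -1.18 (-2.69 to 0.04) on 6 and 50 UMIs, where 2.36% of genes were lower by the fold. In S2CK against P27NULL, E2f3 (-1.03, -1.38 to -0.68) and cyclin E2, Ccne2 (-1.03, -1.42 to -0.66), were just past the fold. None of the 10 to 12 S-phase targets of E2F with enough UMIs, such as the Mcm genes, and none of the 5 MuvB genes was past it in these 3 comparisons, where the medians of the S-phase list were 0.20, -0.09 and 0.22. Among genes of D cyclin turnover and CDK4 chaperones, Cryab was lower in P27NULL (-1.39) and in S2CK (-1.23) than in WT. Cks1b, also in the lists, was higher in S2CK than in WT (1.34, 0.99 to 1.71). None of the 14 atypical and CAK cyclins and kinases with enough UMIs was past the fold in melanotroph-like cells.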

How the data were processed

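The files hold raw UMI counts per gene and cell barcode, 1 table per library. The authors made these counts with Cell Ranger 3.0.2 and STAR 2.5.1b on mm10, from Chromium Single Cell 3′ libraries sequenced on a HiSeq4000, and used Seurat 3 in R 3.6.0 to analyse them; the deposited counts were used without further filters. The smallest cells held 502 UMIs in WT, 1005 in P27NULL and 1002 in S2CK, and 162 WT cells had under 1000 UMIs.

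Each library was clustered alone with scanpy 1.11.5 (counts scaled to 10000 per cell, 2000 variable genes, 20 components, 20 neighbours, Leiden resolution 1, igraph 0.11.9) for the melanotroph-like and SC-like classes, and the 3 libraries together for other types. The 8 genes, Cdkn1b, Sox2, Sox9, Pomc, Tbx19, immediate early genes and genes of the sex lists did not enter the clustering. A cluster was named from at least 3 detected markers, and thresholds of that naming were set after the data were seen. Scrublet marked 11 of 9661 cells, too few for the call to have worked, so doublets were kept and an alternative left out the 268 highest scores.

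UMIs were summed per group and cell type with at least 20 cells and scaled to CPM of all UMIs of those cells. Intervals were exact Poisson for levels, Clopper-Pearson for shares and conditional binomial for log2 ratios (Python 3.11.15, numpy 2.4.6, scipy 1.17.1), and cover counting error only. TMM factors came from edgeR 4.0.16 in R 4.3.3. A ratio between levels needed a row in both tables and at least 50 UMIs, and a split of cells by Ccnd2 at least 100. A level of 0 UMIs was set against a floor of 3 UMIs, and intervals of ratios stayed exact. Thinning drew UMIs without replacement with a fixed seed. Likeness used log2(CPM + 10). Scripts were tested on simulated data.

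Genes named from the Ccnd2 split are the 8 whose interval lies farthest from 0 in each direction. Those named for likeness are the 5 with the highest r, and neighbours are up to 3 nearest on each side with at least 50 UMIs. At higher coordinates than Ccnd1 only Tpcn2 was found. From the pathway lists, genes past 2-fold are named. The 8 genes, the lists and the comparisons were chosen with earlier results of these data known. Gene positions are from RefSeq, GRCm38.p6, in which all 8 symbols matched. Alternatives covered scaling, filters on cells, doublets, clustering, the definition of melanotrophs, depth, sex and the UMI minimum.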

Additional observations from a re-analysis of the deposited data

How the results depend on the processing

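No paired analysis was possible because each genotype is 1 library, and for the same reason no replicate could be left out. Among the 8 genes, no ratio between libraries that was past 2-fold changed sign under any alternative run. In the WT split by Ccnd2, Cga did, from a log2 ratio of 3.18 to -1.66 at 1000 UMIs per cell and -4.36 at 4000. The Ccnd2 log2 ratio of P27NULL against WT in melanotroph-like cells went from -1.98 to -2.07 when the total left out Pomc, mitochondrial and ribosomal protein genes, and to -3.49 with male P27NULL cells. Added after the data were seen, female P27NULL cells gave -0.21, with 1 of the genes past 2-fold in place of 2, and P27NULL cells with a Y-linked UMI gave -4.06. The Ccnd2 ratio of S2CK against P27NULL went from -2.82 to -4.58 against female P27NULL cells and, added later, to -1.30 against male ones, where 1 gene was past the fold (3.47% of all genes were lower by it). With cells thinned to 2000 UMIs 1 gene was also past it there, since Ccnd1 then had too few UMIs. S2CK against WT had 2 genes past the fold under every alternative run. The WT split by Ccnd2 had 91 of 2818 genes past 0.5 on the log2 scale (3.23%). There were 59 of 1514 at 1000 UMIs per cell (3.90%) and 229 of 3109 at 4000 (7.37%). With at least 50 UMIs there were 483 of 5009 (9.64%), and with no minimum 5887 of 14501 (40.6%). TMM factors were 0.994, 1.05 and 0.959 and changed none of the counts of genes past the fold. Among low members and SC-like cells depth is the limit: in SC-like cells 3 UMIs correspond to 5.35, 7.91 and 4.56 CPM in WT, P27NULL and S2CK.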

Other observations

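Cells that no marker list named also differed in Ccnd2 between libraries. The 43 unnamed cells of P27NULL had 218 CPM (147 to 311) and the 142 of S2CK 18.8 CPM (10.5 to 31.0), with Cdk4 at 124 and 102 CPM. Melanotroph-like cells with UMIs of 2 or more of 5 proliferation markers were few, with 4 in WT, 9 in P27NULL and 2 in S2CK, and the 4 WT cells had 6 Ccnd2 UMIs (174 CPM, 63.8 to 378) and no Ccnd1 UMI, beside 443 CPM of Ccnd2 (426 to 460) in the other WT cells. With 4 cells, the spread between cells is not covered by that interval.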
